A study of Mus musculus with 6 samples.

Results

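The genes described here are 10 genes of the NRF2 antioxidant response, chosen by name from the 54232 genes of the deposited count table: the transcription factor gene Nfe2l2, its repressor Keap1, and the 8 response genes Nqo1, Hmox1, Gclc, Gclm, Txnrd1, Srxn1, Gsta4 and Gstm1. Each name matched 1 row of the table, and all 10 genes passed the filter on low counts. They were measured by RNA-seq in primary oviductal muscle cells of pregnant mice, in 3 libraries with the genotype WT and 3 with the genotype Pbrm1 cKO, a conditional deletion of Pbrm1. Pbrm1 encodes PBRM1, a bromodomain subunit of the PBAF form of the SWI/SNF chromatin remodeling complex. In both groups the females were 8 to 12 weeks old and were taken on day 2 of pregnancy after mating with a stud male. Cells were freed from cut oviducts with a mixture of trypsin, collagenase type I and dispase, and they were plated for 4 hours and kept for 2 hours after a change of medium before RNA was taken. Per the study, the deletion is driven by a Cre placed in the progesterone receptor gene. A Cre of this kind acts in cells that express the receptor. The labels name the controls WT, whereas the study writes the controls of the oviductal cells as Pbrm1 fl/fl, without the Cre. The study calls the 3 replicates of the oviductal cells biological, and it names the strain of the Cre line. The strain of the crossed females and the number of animals behind each library are not given in the sources used here. P-values therefore measure the spread between these libraries, part of which may be technical.

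NRF2, the protein made from Nfe2l2, is a basic leucine zipper transcription factor. In unstressed cells KEAP1 holds it and hands it to a CUL3 ubiquitin ligase for destruction by the proteasome. Oxidants and electrophiles modify cysteines of KEAP1, NRF2 then escapes, enters the nucleus, pairs with a small MAF protein and binds antioxidant response elements near genes for glutathione synthesis, thioredoxin recycling, quinone reduction, heme breakdown and conjugation of reactive compounds. BACH1 competes for the same elements as a repressor and holds down Hmox1 in particular. Because NRF2 is controlled mainly through the stability of the protein, the level of its mRNA is not a measure of its activity.

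The core of the antioxidant response element is commonly written TGACNNNGC, and these letters were searched on both strands of the windows from 250 bases before to 50 after each RefSeq transcription start (GRCm38.p6). The windows held 7 of the 10 genes. Hmox1, Gclc and Gsta4 were not in the table used. The letters were present for Gclm, Nfe2l2, Srxn1 and Txnrd1, which is 4 of 7 genes, and in the windows of 14.0% of all 27025 genes. They were not in the windows of Keap1, Nqo1 and Gstm1. The related letters TGACTCA, shared with the AP-1 site, were present for 1 of the 7 genes, Srxn1, and for 5.95% of all genes. The stretches below are shown because they carry these letters in front of 4 of the 10 genes, of which Nfe2l2 and Gclm passed the test between genotypes described below and Txnrd1 and Srxn1 did not. They are written 5′ to 3′ on the strand of the gene, and capitals mark the match, which for Gclm and Txnrd1 reads as the reverse complement of the letters searched. The Txnrd1 stretch belongs to 1 of its 3 start windows. For Srxn1 both occurrences of TGACTCA, each as its reverse complement, are shown, and its match to TGACNNNGC lay after the start, at bases 28 to 36, and is not printed. A match is a description of the letters and not a site of binding.
Nfe2l2, chr2:75704855-75704913, minus strand, match at -240 to -232 from the start: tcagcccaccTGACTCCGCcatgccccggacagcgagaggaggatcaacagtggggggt
Gclm, chr3:122245383-122245471, plus strand, match at -134 to -126: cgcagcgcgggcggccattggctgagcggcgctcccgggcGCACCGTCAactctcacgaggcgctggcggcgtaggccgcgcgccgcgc
Txnrd1, chr10:82859074-82859162, plus strand, match at -92 to -84: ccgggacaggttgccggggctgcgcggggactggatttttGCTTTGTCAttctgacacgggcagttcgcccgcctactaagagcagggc
Srxn1, chr2:152105397-152105453, plus strand, match at -102 to -96: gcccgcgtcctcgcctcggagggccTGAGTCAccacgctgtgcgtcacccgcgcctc
Srxn1, chr2:152105454-152105503, plus strand, match at -45 to -39: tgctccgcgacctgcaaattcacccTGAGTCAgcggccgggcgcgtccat

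The 6 libraries held between 15390818 and 18947947 counts over genes. 3 counts of a gene equal 0.158 to 0.195 CPM (counts scaled to a common library size), a limit that covers counting error only. Values below are CPM scaled by edgeR's normalization factors, as mean ± SD over 3 libraries, and log2 fold changes are cKO over WT from edgeR's quasi-likelihood test, with p-values adjusted by the Benjamini-Hochberg method over all 15376 genes tested. Pbrm1 fell from 175 ± 7.09 to 45.6 ± 4.39 CPM, 26.0% of the WT mean (adjusted p = 9.13e-11). The groups differed widely: 6723 genes (43.7%) passed an adjusted p of 0.05, 3373 of them (21.9%) higher and 3350 (21.8%) lower in cKO, and the first principal component held 78.5% of the variance and separated the genotypes. Library cKO2 lay apart from the other cKO libraries on the second component.

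Of the 10 NRF2 response genes, 5 passed the test. Nfe2l2, Hmox1 and Gclm rose, and Gclc and Gsta4 fell. Without WT3 the count was 3, since Gclc and Gclm no longer passed. The share of 5 in 10 lies near the 43.7% of all tested genes, as do 3 higher beside 21.9% and 2 lower beside 21.8%, so the count does not set these genes apart from the rest of the transcriptome. Most of the changes were small. The median log2 fold change of the 10 genes was -0.02, beside 0.00 for all tested genes, and Gsta4, Nfe2l2 and Hmox1 had a log2 fold change farther from 0 than 0.22, the median absolute value of all tested genes, and the other 7 did not. The CPM of the groups did not overlap for 9 of the 10 genes, against 53.5% of all tested genes.

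**Figure D1:**
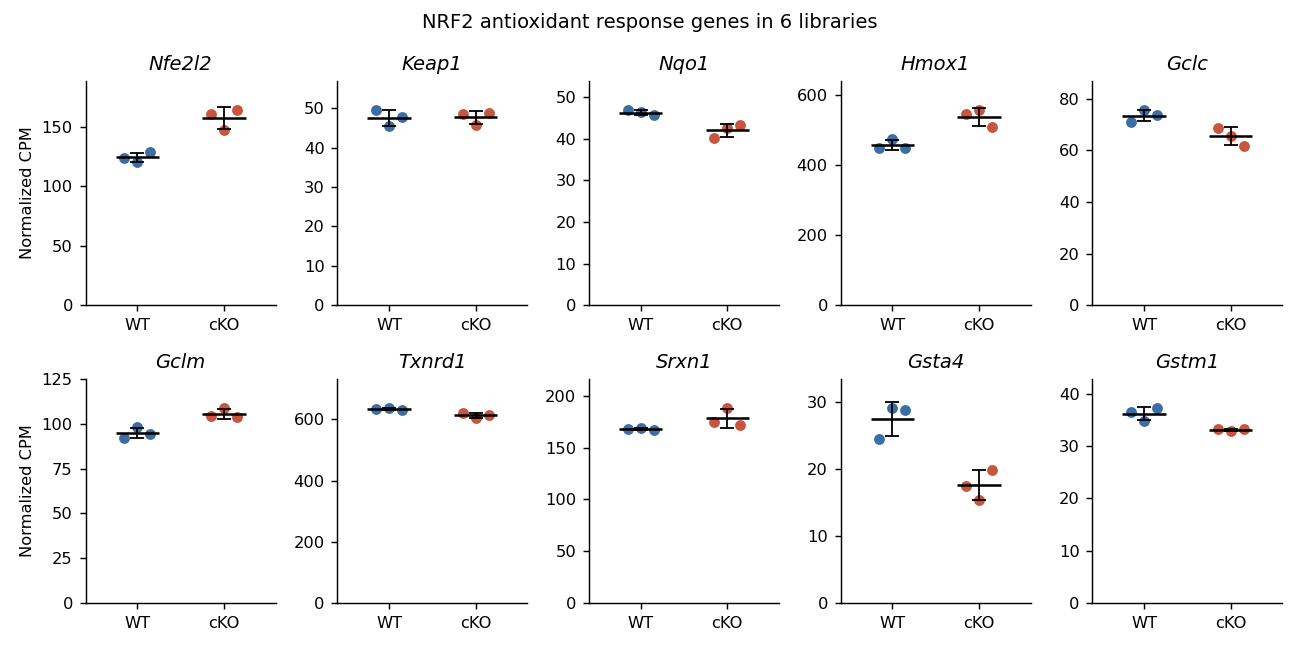
Normalized CPM of each of the 10 genes in the 3 WT (blue) and 3 cKO (red) libraries. Each axis starts at 0, horizontal lines are means and bars are SD over 3 libraries. Nfe2l2 and Hmox1 lie higher and Gsta4 lower in every cKO library, while the Keap1 values of the groups overlap.

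The sensor pair moved unequally. Nfe2l2 (ENSMUSG00000015839.6, chr2:75675513-75704641, minus strand) measured 124, 121 and 129 CPM in WT, and 161, 147 and 164 CPM in cKO. Every cKO library was above every WT library. The mean rose from 124 ± 3.86 to 158 ± 9.02 CPM, a log2 fold change of 0.34 (SE 0.051, 95% interval 0.23 to 0.45, adjusted p = 0.000123), which was 127% of the WT mean, and 33.0% of all tested genes changed by more.

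Keap1 (ENSMUSG00000003308.15, chr9:21229730-21239361, minus strand) was at 49.5, 45.5 and 47.8 CPM in WT and at 48.6, 45.7 and 48.8 CPM in cKO. The groups overlapped throughout. Its log2 fold change was 0.00 with a 95% interval from -0.12 to 0.13 (adjusted p = 0.974), and its means were 47.6 ± 2.02 and 47.7 ± 1.72 CPM. A change of the size seen for Nfe2l2 lies outside that interval.

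The number of Nfe2l2 counts for each Keap1 count within a library, a ratio that needs no scaling between libraries and was chosen after the values were seen, was 2.50, 2.66 and 2.69 in WT and 3.32, 3.22 and 3.37 in cKO. The groups did not overlap, and the mean went from 2.62 ± 0.102 to 3.30 ± 0.0733, or 126% of WT. The ratio is a description, with no test.

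Glutathione, the main small thiol of the cell, is made in a rate-limiting step by glutamate-cysteine ligase, which has a catalytic subunit encoded by Gclc and a modifier subunit encoded by Gclm that raises its efficiency. The transcripts of these partners went in opposite directions. Gclc (ENSMUSG00000032350.9, chr9:77754535-77794485, plus strand) was at 71.1, 75.5 and 73.8 CPM in WT and at 68.8, 65.7 and 61.8 CPM in cKO. All cKO libraries were below all WT libraries, with a gap that was narrow between WT1 and cKO1. The mean fell from 73.5 ± 2.24 to 65.4 ± 3.54 CPM (log2 fold change -0.17, SE 0.054, 95% interval -0.28 to -0.05, adjusted p = 0.0236). This call was lost with DESeq2 (adjusted p = 0.0507) and without WT2 (0.0964), WT3 (0.0624) or cKO3 (0.0916).

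Gclm (ENSMUSG00000028124.15, chr3:122245557-122270732, plus strand) was at 92.3, 98.1 and 94.6 CPM in WT and at 104, 109 and 104 CPM in cKO. Again no cKO library overlapped the WT range, here on the higher side. The mean rose to 106 ± 2.80 CPM, 111% of WT (log2 fold change 0.15, SE 0.047, 95% interval 0.05 to 0.26, adjusted p = 0.016), a call that was lost without WT1 (adjusted p = 0.0758) or WT3 (0.0528).

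The number of Gclc counts for each Gclm count was 0.770, 0.770 and 0.780 in the WT libraries, a narrow range, and 0.661, 0.603 and 0.594 in the cKO libraries. Every cKO ratio was below every WT ratio. The mean went from 0.774 ± 0.00571 to 0.619 ± 0.0362, which is 80.0% of WT. This pair was also picked after its values were seen, and its ratio restates the opposite changes of the 2 genes, so no test is given.

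**Figure D2:**
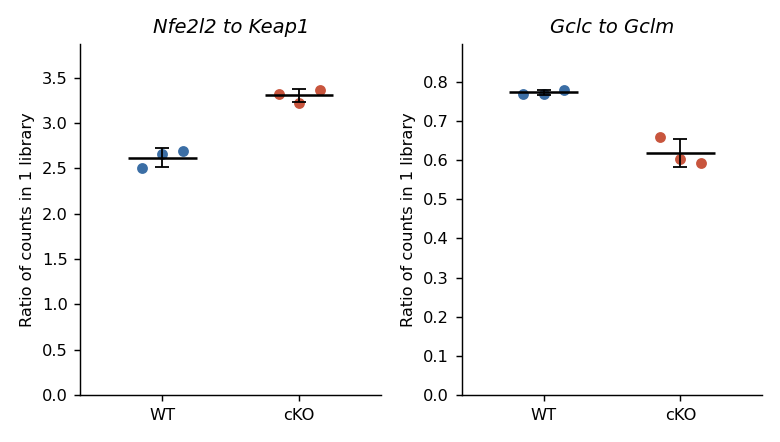
Ratio of the counts of Nfe2l2 to Keap1 (left) and of Gclc to Gclm (right) within each library, with the mean and SD over 3 libraries and axes from 0. The first ratio is higher and the second lower in every cKO library.

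Thioredoxin reductase 1, made from Txnrd1, uses NADPH to keep thioredoxin reduced, and sulfiredoxin, made from Srxn1, repairs peroxiredoxins that have been over-oxidized. Neither transcript passed the test. Txnrd1 (ENSMUSG00000020250.10, chr10:82833951-82897712, plus strand) was abundant, at 633, 637 and 630 CPM in WT and 620, 605 and 616 CPM in cKO. The cKO libraries lay below the WT libraries by a small margin. The log2 fold change was -0.05, with a 95% interval from -0.13 to 0.04 (adjusted p = 0.383).

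Srxn1 (ENSMUSG00000032802.8, chr2:152105516-152111376, plus strand) was at 168, 169 and 167 CPM in WT and at 175, 188 and 171 CPM in cKO. The WT values were nearly equal, with a coefficient of variation of 0.575%, the lowest among the 10 genes in WT, and cKO2 was the highest library. Its means were 168 ± 0.966 and 178 ± 8.93 CPM, and the log2 fold change of 0.08 (95% interval -0.02 to 0.19) missed the threshold (adjusted p = 0.163). For both genes the 95% interval leaves out a change of the size that Nfe2l2 showed.

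Nqo1 encodes a quinone reductase that is a standard reporter of NRF2 activity, and Hmox1 encodes the inducible heme oxygenase, which splits heme into biliverdin, iron and carbon monoxide and responds to BACH1 as well as to NRF2. Their values lay on opposite sides of WT. Nqo1 (ENSMUSG00000003849.8, chr8:107388225-107403206, minus strand) was at 46.9, 46.4 and 45.6 CPM in WT and at 40.2, 42.5 and 43.4 CPM in cKO. The groups did not overlap. The means were 46.3 ± 0.630 and 42.0 ± 1.64 CPM, 90.8% of WT, and the log2 fold change of -0.14 (SE 0.056, 95% interval -0.26 to -0.02) did not pass after adjustment (adjusted p = 0.059). With upper-quartile scaling it did (adjusted p = 0.041).

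Hmox1 (ENSMUSG00000005413.8, chr8:75093621-75100589, plus strand) was at 450, 476 and 450 CPM in WT and at 546, 558 and 509 CPM in cKO. All 3 cKO libraries were higher than all 3 WT libraries. The mean rose from 459 ± 15.2 to 537 ± 25.6 CPM, 117% of WT (log2 fold change 0.23, SE 0.048, 95% interval 0.13 to 0.33, adjusted p = 0.00154), and each library held between 7607 and 10513 counts of it.

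Hmox1 is also abundant in macrophages that clear heme, and leukocyte and macrophage markers moved with it. All 10 tested genes of the 12 on that marker list, among them Ptprc, Csf1r and Cd163, were higher in cKO, with a summed level of 710 to 765 CPM in WT and 1113 to 1183 CPM in cKO. The T cell and B cell markers Cd3e and Cd79a did not pass the filter. Their part in the Hmox1 result was not tested. In these libraries of mixed cells, more cells of a type and more RNA per cell cannot be told apart.

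Glutathione S-transferases join glutathione to reactive compounds. GSTA4 has a preference for 4-hydroxynonenal and related products of lipid peroxidation, and GSTM1 acts on a broad set of electrophiles. Gsta4 (ENSMUSG00000032348.6, chr9:78182774-78209349, plus strand) was at 24.5, 29.1 and 28.8 CPM in WT and at 17.5, 15.3 and 19.8 CPM in cKO. Every cKO library was below every WT library. The mean fell from 27.5 ± 2.57 to 17.6 ± 2.24 CPM, 63.9% of WT (log2 fold change -0.65, SE 0.098, 95% interval -0.86 to -0.44, adjusted p = 0.00012), and 13.6% of all tested genes changed by more. It was the largest change among the 10 genes, on the fewest counts (289 to 545 per library), and its coefficient of variation was the highest in both groups, at 9.36% in WT and 12.8% in cKO.

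Gstm1 (ENSMUSG00000058135.12, chr3:108012255-108017973, minus strand) was at 36.5, 34.9 and 37.3 CPM in WT and at 33.3, 32.9 and 33.3 CPM in cKO. The cKO values sat just under the WT range. The means were 36.2 ± 1.24 and 33.2 ± 0.192 CPM, with a log2 fold change of -0.13 (95% interval -0.25 to 0.00, adjusted p = 0.10). Gstm1 shares sequence with other genes of its family: its transcripts aligned to the pseudogene Gstm2-ps1 at 97.9% identity over 657 bases, to Gstm3 at 89.5% over 1054 bases and to Gstm2 at 87.1% over 650 bases, so its count is less certain than those of the other genes. Srxn1 had a copy at 85.3% over 375 bases, and the other 8 genes had none of at least 85% over 300 bases.

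**Figure D3:**
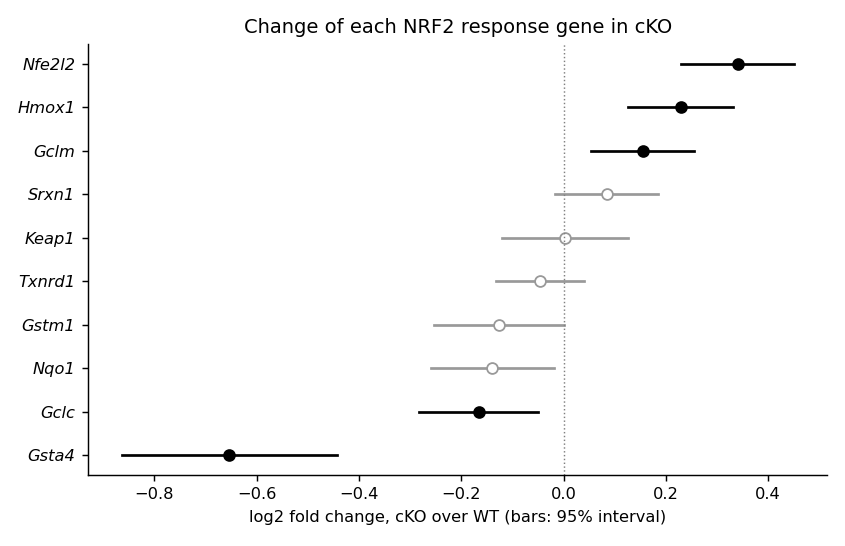
Log2 fold change, cKO over WT, of each of the 10 genes with its 95% interval from edgeR. Filled black points passed an adjusted p of 0.05 and open grey points did not. Gsta4 at -0.65 lies farthest from 0, followed by Nfe2l2 at 0.34.

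By position, Gclc and Gsta4, the genes that fell, are both on chromosome 9 with 388288 bases between them. The other gene on that chromosome, Keap1, is 56.5 Mb from Gclc. The Pgr gene, which carries the Cre in cKO females, is on the same chromosome too, 12.3 Mb from Keap1, 68.8 Mb from Gclc and 69.2 Mb from Gsta4, and Pgr itself had a log2 fold change of -0.05 (adjusted p = 0.508, and 0.036 without cKO2). Txnrd1 contains the gene Eid3 on the same strand, with 43 to 64 counts per library, and the genes that overlap Nfe2l2, Gclm and Keap1 held at most 33 counts.

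Per kilobase of exon, Hmox1 was the most abundant of the 10 transcripts in WT at 262 CPM per kb, a level that only 0.605% of tested genes exceeded, followed by Txnrd1 at 89.4 and Srxn1 at 59.6 CPM per kb. Nfe2l2 at 32.8, Nqo1 at 29.8, Gstm1 at 24.6, Gsta4 at 21.7, Gclc at 19.5, Gclm at 15.1 and Keap1 at 10.1 CPM per kb came next. Of the neighbours in this order, Gsta4 and Gclc overlapped between WT libraries and the others did not. In cKO the first 6 places were the same, with Hmox1 at 307 and Nfe2l2 at 41.5 CPM per kb. Gsta4 stood below Gclc and Gclm there, at 13.9 CPM per kb against 17.4 and 16.8, and the last 2 overlapped each other.

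Genes around the 10 were read by role, and their counts stand against the 43.7% of all tested genes that passed, 21.9% higher and 21.8% lower. No difference of a list from that background was tested. Of 14 genes that control NRF2 or bind beside it, 6 were higher, 1 was lower and 7 did not pass, with a median log2 fold change of 0.17. The 7 that passed are 50% of the list, near the background. Bach1, the repressor of antioxidant response elements, was at 77.8, 77.1 and 74.6 CPM in WT and at 122, 114 and 121 CPM in cKO. All cKO libraries were far above all WT libraries (log2 fold change 0.64, SE 0.048, adjusted p = 2.55e-07). Maff, a small MAF partner, rose from 52.3 ± 3.47 to 78.0 ± 5.18 CPM (adjusted p = 8.9e-06), and Nfe2l3, a relative of Nfe2l2, from 3.51 ± 0.338 to 5.61 ± 0.649 CPM (adjusted p = 0.00221). Trim21, an interferon-inducible ubiquitin ligase, was at 7.29 ± 1.20 CPM in WT and rose to 247% of that in cKO (log2 fold change 1.30, adjusted p = 8.07e-06). Cul3, the scaffold of the ligase that KEAP1 serves, was the 1 gene lower, from 182 to 163 CPM (adjusted p = 0.00825).

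Among 14 tested genes of glutathione synthesis and recycling outside the 10, 5 were higher, 2 were lower and 7 did not pass (median log2 fold change 0.12), so that 50% passed, beside 43.7% of all tested genes. Slc7a11, the cystine importer that feeds glutathione synthesis and a known target of NRF2 and ATF4, was at 48.0, 44.4 and 45.7 CPM in WT and at 89.9, 89.1 and 93.1 CPM in cKO. The groups were well separated (log2 fold change 0.98, SE 0.052, adjusted p = 1.04e-08). The selenium-containing peroxidase Gpx3 rose from 25.7 ± 3.06 to 45.6 ± 6.72 CPM (adjusted p = 2.53e-05). Chac1, which rose from 14.0 ± 0.701 to 20.7 ± 2.58 CPM (adjusted p = 0.000384), degrades glutathione rather than making it. Ggct, a cyclotransferase of gamma-glutamyl compounds, fell from 30.4 ± 0.420 to 13.2 ± 2.26 CPM (log2 fold change -1.20, adjusted p = 6.94e-07).

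Of 12 thioredoxin and peroxiredoxin genes tested, 2 were higher, 1 was lower and 9 did not pass, with a median log2 fold change of 0.10. The share that passed was 25%, beside 43.7% of all tested genes, and the count ranged from 2 to 5 over the alternatives. Txnip, which binds and inhibits thioredoxin, rose from 94.8 ± 4.60 to 125 ± 4.01 CPM (adjusted p = 2.44e-05). Prdx1 rose from 424 ± 20.0 to 476 ± 18.8 CPM (adjusted p = 0.013), and Prdx6 fell from 351 ± 3.59 to 295 ± 12.2 CPM (adjusted p = 0.000444). The call for Prdx1 was lost without WT1, WT2 or cKO3, and 5 genes of the list passed without cKO2.

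NADPH is the electron donor for glutathione reductase, thioredoxin reductase and NQO1. The list for its supply held Me1, Idh1 and genes of the pentose phosphate pathway, and not every enzyme of that pathway makes NADPH itself. Out of 7 genes tested, 5 were lower, 1 was higher and 1 did not pass, and the median log2 fold change was -0.33. The 5 lower genes are 71.4% of the list, beside 21.8% of all tested genes. The count that passed in either direction fell from 6 to 4, or 57.1%, without WT1 and with an adjusted p under 0.01. Pgd, of the pentose phosphate pathway, was at 225, 251 and 230 CPM in WT and at 154, 150 and 127 CPM in cKO. Malic enzyme Me1 was at 69.8, 74.5 and 82.4 CPM in WT and at 53.8, 40.5 and 45.7 CPM in cKO. Isocitrate dehydrogenase Idh1 was at 141, 151 and 158 CPM in WT and at 99.5, 88.5 and 102 CPM in cKO. For all 3 genes every cKO library was below every WT library, and the log2 fold changes were -0.71 for Pgd (adjusted p = 2.04e-06), -0.70 for Me1 (adjusted p = 3.03e-05) and -0.64 for Idh1 (adjusted p = 1.95e-06). Tkt fell from 373 ± 5.95 to 297 ± 5.09 CPM (adjusted p = 2.64e-05), and G6pdx, the entry enzyme of the pentose phosphate pathway, was the gene that was higher, from 138 to 152 CPM (adjusted p = 0.0269). The call for G6pdx was lost with DESeq2, with no filter on low counts and without WT1, WT2, cKO1 or cKO3, with adjusted p up to 0.132. Taldo1 was the gene that did not pass (log2 fold change 0.04, adjusted p = 0.502). Me1, Pgd and Tkt are known NRF2 targets in other tissues. The list was not sorted into NRF2 targets and other genes, so these genes do not show how the targets on it moved as a set.

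**Figure D4:**
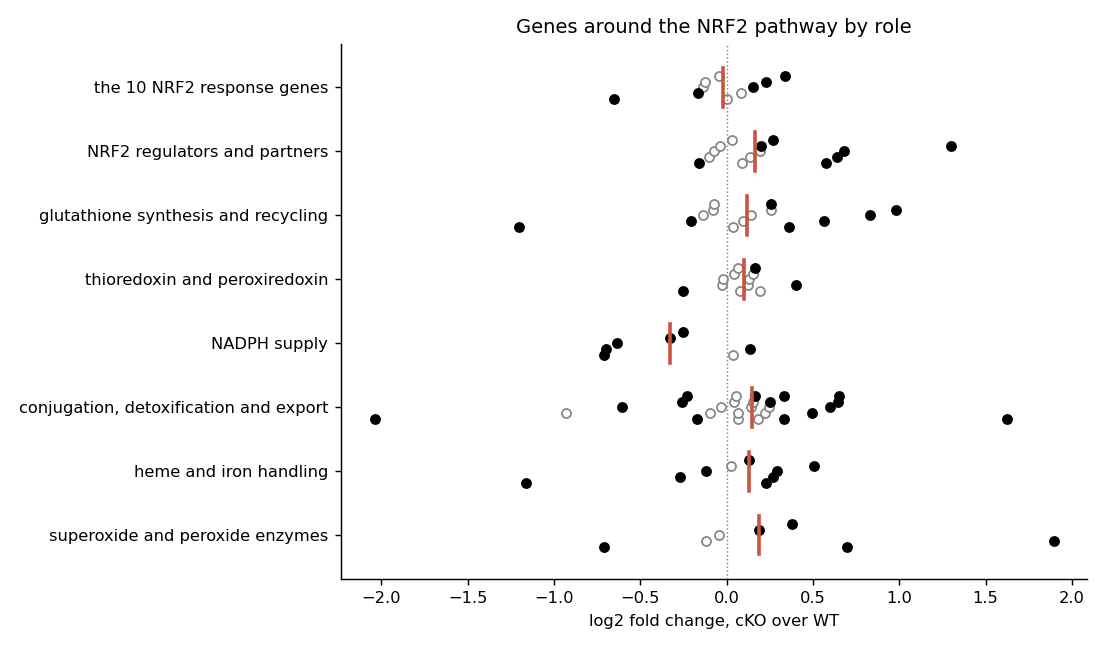
Log2 fold change, cKO over WT, of each tested gene by role. Filled points passed an adjusted p of 0.05, open points did not, and red lines are medians. The NADPH supply genes have the lowest median, at -0.33, and the 10 NRF2 response genes spread around 0.

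Of 34 further genes for conjugation, detoxification and export, 26 were tested, and 9 were higher, 5 lower and 12 did not pass (median log2 fold change 0.15). The share that passed was 53.8%, beside 43.7% of all tested genes. Several other glutathione S-transferases went the other way from Gsta4: Gstt1 rose from 2.15 ± 0.252 to 6.66 ± 1.13 CPM (log2 fold change 1.63, adjusted p = 7.43e-06), Gstm2 from 12.1 ± 0.987 to 19.1 ± 2.37 CPM (adjusted p = 0.000224) and Gstk1 from 7.11 ± 0.840 to 11.1 ± 0.732 CPM (adjusted p = 0.000457). Gstt2 fell from 4.53 ± 0.861 to 2.97 ± 0.0707 CPM (adjusted p = 0.0105), a call that was lost without WT3. Gsta1 and Gsta2, of the same class as Gsta4, did not pass the filter on low counts. Gsta3, also of that class, was tested and did not pass the threshold (log2 fold change 0.22, adjusted p = 0.0913). Its cKO libraries all lay above its WT libraries, the opposite direction to Gsta4.

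Among 9 genes of heme and iron handling tested beside Hmox1, 5 were higher, 3 lower and 1 did not pass (median log2 fold change 0.13). Slc40a1, the iron exporter ferroportin, was at 31.6, 33.5 and 35.7 CPM in WT and at 15.5, 15.2 and 14.2 CPM in cKO. Its values fell to under the WT range in every cKO library (log2 fold change -1.16, SE 0.075, adjusted p = 6.94e-08), while Hmox1 was higher in the same libraries. Biliverdin reductase B (Blvrb) rose from 31.1 ± 0.833 to 44.2 ± 4.16 CPM (adjusted p = 8.48e-05), ferrochelatase (Fech) from 58.3 ± 2.89 to 71.5 ± 2.51 CPM (adjusted p = 0.000714) and the constitutive heme oxygenase Hmox2 from 45.5 ± 1.30 to 54.8 ± 1.61 CPM (adjusted p = 0.00122). The 8 genes called are 88.9% of the list, beside 43.7% of all tested genes, and the count fell to 5, or 55.6%, without WT1, WT2 or cKO1.

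The enzymes that make or remove superoxide and peroxide outside the NRF2 core included Sod3, the gene with the largest rise on the pathway lists. Of 7 tested, 4 were higher, 1 was lower and 2 did not pass (median log2 fold change 0.19), which is 71.4% that passed beside 43.7% of all tested genes. Extracellular superoxide dismutase Sod3 was at 5.14, 4.65 and 4.74 CPM in WT and at 20.8, 13.2 and 20.3 CPM in cKO. Mitochondrial superoxide dismutase Sod2 was at 97.6, 93.3 and 91.4 CPM in WT and at 162, 129 and 167 CPM in cKO. For both genes no library overlapped, cKO2 was the lowest of the cKO libraries, and the log2 fold changes were 1.89 (adjusted p = 1.01e-06) and 0.69 (adjusted p = 1.02e-05). The NADPH oxidase gene Nox4 fell from 4.50 ± 0.806 to 2.74 ± 0.434 CPM (adjusted p = 0.00658), and Ncf1, a subunit of the phagocyte oxidase, rose from 14.1 ± 0.0525 to 18.2 ± 2.56 CPM (adjusted p = 0.00766).

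Of 12 immediate early and heat shock genes, whose levels also follow tissue handling, 6 were higher, 1 was lower and 5 did not pass, which is 58.3% that passed beside 43.7% of all tested genes, with a summed level of 642 to 715 CPM in WT and 776 to 844 CPM in cKO. Hspa1a rose from 12.8 ± 1.59 to 37.8 ± 4.80 CPM (adjusted p = 1.14e-07), Hspa1b from 35.5 ± 1.59 to 81.2 ± 7.13 CPM (adjusted p = 2.34e-08), Fos from 32.6 ± 2.93 to 58.9 ± 4.32 CPM (adjusted p = 9.83e-07) and Atf3 from 16.8 ± 1.18 to 23.0 ± 1.35 CPM (adjusted p = 0.00054). Fosb was the gene that fell, from 16.2 ± 0.895 to 11.9 ± 0.687 CPM (adjusted p = 0.00115). Oxidants and heat are known inducers of Hmox1, and the part of such stress in the Nfe2l2, Hmox1 and Slc7a11 results was not tested.

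The libraries also held other cell types. The label names muscle cells and gives no marker levels. Smooth muscle markers summed to 3537 to 3634 CPM in WT and 4515 to 5133 CPM in cKO, and 6 of 10 were higher. Fibroblast markers summed to 4969 to 5550 CPM in WT and 7428 to 7765 CPM in cKO, with 7 of 10 higher and 1 lower. Epithelial markers summed to 1005 to 1094 CPM in WT and 1169 to 1302 CPM in cKO, with 7 of 10 higher. Endothelial markers summed to 365 to 386 CPM in WT and 298 to 310 CPM in cKO, a fall carried by Kdr, a receptor for vascular endothelial growth factor (182 to 99.4 CPM, adjusted p = 3.65e-07). Without Kdr the other 7 summed to 191 to 199.6 CPM in WT and 187 to 216 CPM in cKO, with Egfl7 higher and the other 6 not passing. Mesothelial markers went from 199 to 209 CPM in WT to about 152 CPM in cKO, with 3 of 5 lower. Erythroid markers were near the floor, at 1.93 to 2.13 CPM in WT and 0.129 to 0.281 CPM in cKO, with 1 of 6 tested and lower. No gene of these lists was at 0 in all 6 libraries. The part of these cells in the values of the 10 genes was not tested.

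**Figure D5:**
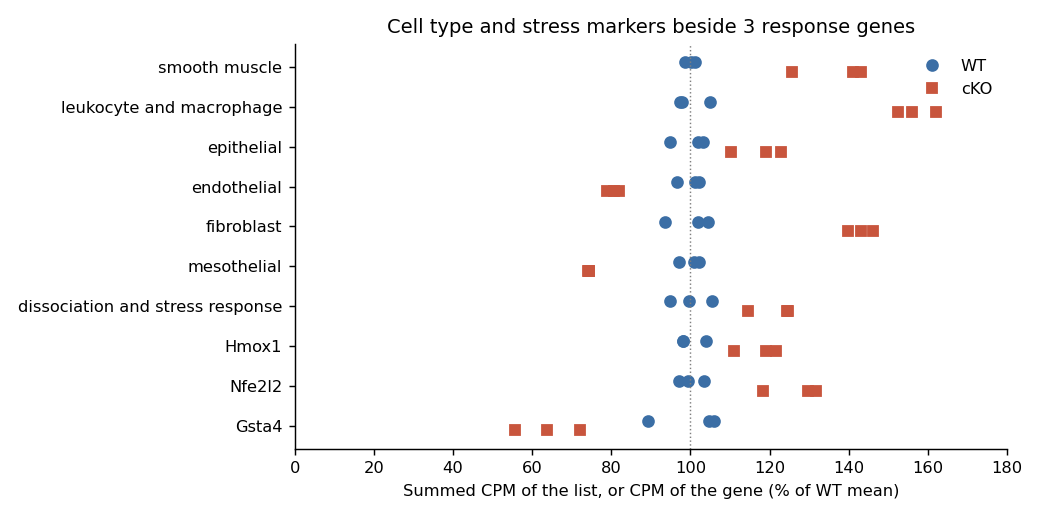
Summed CPM of each marker list, and CPM of Hmox1, Nfe2l2 and Gsta4, in each library as a percentage of the WT mean. The erythroid list, near the floor, is not shown. Blue circles are WT and red squares are cKO libraries. Leukocyte, fibroblast, epithelial, smooth muscle and stress lists lie above WT in every cKO library, as do Hmox1 and Nfe2l2. The mesothelial list, the endothelial list (through Kdr alone) and Gsta4 lie below.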

How the data were processed

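The authors deposited raw counts per gene for 6 libraries in 1 table. The file headers name featureCounts 1.6.4, run on exons with the reverse-strand setting over GENCODE M18 of mouse GRCm38.p5. Reads that match several genes or places were left out by its default options, which lowers counts of near-identical genes. The submitters' processing notes also name cutadapt and HISAT2. Symbols came from GENCODE M21 and matched 54079 of 54232 genes (99.72%). No column was left unassigned.

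The test was edgeR's quasi-likelihood F-test (version 4.0.16, under R 4.3.3; TMM, filterByExpr by group, Benjamini-Hochberg over 15376 genes, threshold 0.05). Its biological coefficient of variation was 5.32%. The script was tested on simulated data. Within each group, every pair of libraries exceeded sampling noise (chi-square per gene 1.32 to 1.60). Alternatives were DESeq2 1.42.0, limma-voom 3.58.1, other scalings and filters, a replicate block, leaving out each library and a threshold of 0.01. Copies were sought with BLAST 2.17.0, and promoter windows are from RefSeq. Levels per kilobase used the exon length in the table.

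The 10 genes and all lists were chosen with earlier results of these data known. From each pathway list, up to 4 called genes of at least 1 CPM with the largest changes were named. Cul3, G6pdx, Fosb, Kdr, Egfl7 and Pgr were named after their values were seen. So were Gsta3 and Taldo1, which were not followed as single genes under the alternatives.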

Additional observations from a re-analysis of the deposited data

How the results depend on the processing

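Under 15 alternatives, 136 of 150 values of the 10 genes kept their direction and their side of the threshold, 8 lost and 1 gained significance and 5 changed sign. Nfe2l2, Hmox1 and Gsta4 kept theirs in all 15, with log2 fold changes of 0.31 to 0.39, 0.21 to 0.27 and -0.74 to -0.56. The sign changes were all of Keap1, whose log2 fold change was -0.0091 with upper-quartile scaling and -0.0072 with no filter on low counts, and ranged from -0.030 to 0.038 when each library was left out. With an adjusted p under 0.01 the count of the 10 genes called went from 5 to 3, without Gclc and Gclm, and leaving out each library gave 3 to 5, with 3 without WT3. DESeq2 called 4 of the 10. The count over all genes was 5535 with DESeq2 and 5532 to 7054 without single libraries. Of 570 values of 38 other named genes, 556 kept their call and direction, and 7 of the 13 that lost significance were of G6pdx. At a threshold of 0.01 (the alternatives for the lists were all chosen after the data were seen), conjugation genes called went from 14 to 8 and heme and iron genes from 8 to 5.

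Same-numbered libraries of the 2 genotypes deviated from their group means with correlations of -0.0364, 0.0532 and 0.127, so the numbers were not taken to pair the libraries. With a replicate block, 6908 genes and 5 of the 10 were called. No scaling moved the median of all genes beyond 0.0174 on the log2 scale. With 3 libraries a group, changes of the size of those of Nqo1 and Gstm1 lay close to the limit of the test.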
